A study of Mus musculus with 50 samples.

Results

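Nnt and 9 further enzymes of mitochondrial redox metabolism were read from the Agilent arrays of the series. The arrays compared the hippocampus of wild-type and transgenic mice. The 9 were Idh2, Me3, Glud1, Gsr, Gpx1, Gpx4, Txnrd2, Prdx3 and Sod2. Not all of them make or spend NADPH: Gpx1, Gpx4 and Prdx3 use glutathione or thioredoxin, and Sod2 acts on superoxide. The members were chosen by name: probes that are not controls and carry one of these gene symbols, or a description naming NADP transhydrogenase. These 10 of the 17030 genes named on the array had 17 of its 41174 probes, 3 for Nnt and 14 for the 9 partner enzymes. Nnt was itself chosen on the contrast reported here, so its values are given as a description without a test. The partners were chosen by function, with earlier results of these data known.

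Nnt codes for nicotinamide nucleotide transhydrogenase, an enzyme of the inner mitochondrial membrane that uses the proton gradient to pass reducing equivalents from NADH to NADP+. The NADPH it yields keeps glutathione and thioredoxin reduced in the matrix, where glutathione peroxidases and peroxiredoxins use them to remove hydrogen peroxide and lipid peroxides. Isocitrate dehydrogenase and malic enzyme of the mitochondria make NADPH by other routes. The C57BL/6J substrain is known to carry a deletion of several Nnt exons, which other C57BL/6 substrains lack.

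The wild-type (WT) group held 5 mice and the transgenic (TG) group 5 mice that overexpress DCLK-short, a constitutively active form of doublecortin-like kinase. Per the study's methods, the mice of both groups were males on a C57/BL6j background and were housed singly before both hippocampi were taken. Their age and the promoter of the transgene are not given in the sources used here. Agilent is a dual-color platform: each of 10 arrays held 1 WT and 1 TG mouse, and each mouse was on 2 arrays, once in Cy3 and once in Cy5, with a different partner each time. The groups on the arrays were therefore WT in Cy3 with TG in Cy5 (arrays 1 to 5) and TG in Cy3 with WT in Cy5 (arrays 6 to 10). Nothing says how the RNA of one mouse was split, so both arrays of a mouse are repeat measurements of 1 animal.

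The direction of every Agilent ratio rests on the array labels, which are in doubt. Every value follows the labels here, and its direction is the opposite of the one in the study's table. On the one-color ABI arrays of 5 WT and 5 TG mice, Tmem254a was the only probe among 33012 with a false discovery rate (FDR, the p adjusted after Benjamini and Hochberg over all probes) of 0.1 or less. Its log2 signal there was 12.98 ± 0.21 (SD, n = 5) in WT mice and 14.80 ± 0.25 (SD, n = 5) in TG mice, which is 1.81 higher in TG (limma, FDR = 0.0251), whereas on Agilent it was lower in TG as labelled, with a log2 ratio of -0.99 (limma, FDR = 1.02e-05). The study's own normalized table, of which 667 genes were held, also fitted better when arrays 1 to 5 and 6 to 10 were exchanged. For each gene the highest correlation over 19 channels with any of the 41174 Agilent probes was taken, without matching by gene. Its median was 0.824 as labelled and 0.936 after the exchange. A maximum over so many probes is high even without a true match, so only the comparison of both values is read. The median correlation between the Cy3 and Cy5 deviations of one mouse was 0.219 as labelled and 0.313 after the exchange. Under the exchange every Agilent ratio keeps its size and changes its sign. The Cy3 and Cy5 channels averaged for a labelled mouse would then come from different animals, except for those labelled TG4 and WT5. Levels per mouse, fits with 1 value per mouse, blocks on the mouse and counts without a mouse therefore hold only as labelled. No member could be named on ABI, so ABI gives no second reading of them.

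Signals well above background in both channels were found for 80.1% to 88.4% of probes, depending on the array. Arrays 1 and 9, which share the mouse labelled TG4, stood apart, with an SD of the log2 ratios over all probes of 0.32 and 0.38 against 0.14 to 0.23 on the other 8 arrays. At an FDR of 0.1, 3053 of the 41174 probes (7.41%) were differentially expressed (DEGs), 3.66% higher and 3.76% lower in TG as labelled. Without the mouse TG4, 2016 probes were DEGs. The 4 probes of Dclk1, the gene of the transgene, had log2 ratios between -0.08 and -0.06 and none passed the FDR or had an unadjusted p under 0.05. Whether they lie in the part that the transgene carries is not known here.

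Nnt, chosen for its difference, is described first. Its probe A_52_P395228 had a log2 ratio of TG over WT of 0.41 on the lowest array, a median of 0.56 and 0.88 on the highest, and its mean of 0.61 ± 0.17 (SD, n = 10 arrays) is 1.52-fold. The ratio of A_51_P113395 ranged from 0.42 to 0.94 with a median of 0.59 and a mean of 0.63 ± 0.18 (SD, n = 10), which is 1.54-fold. That of A_51_P113399 ranged from 0.27 to 0.73 with a median of 0.47 and a mean of 0.51 ± 0.16 (SD, n = 10), which is 1.42-fold. All 3 probes were higher in TG on all 10 arrays as labelled. Over all probes 2.11% kept one sign on all arrays, and nothing is read from this for a gene chosen on the contrast. The highest ratios of the first 2 probes were those of arrays 1 and 9. Without both arrays of TG4 the ratios were 0.54, 0.55 and 0.49 in the same order of probes.

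**Figure D1:**
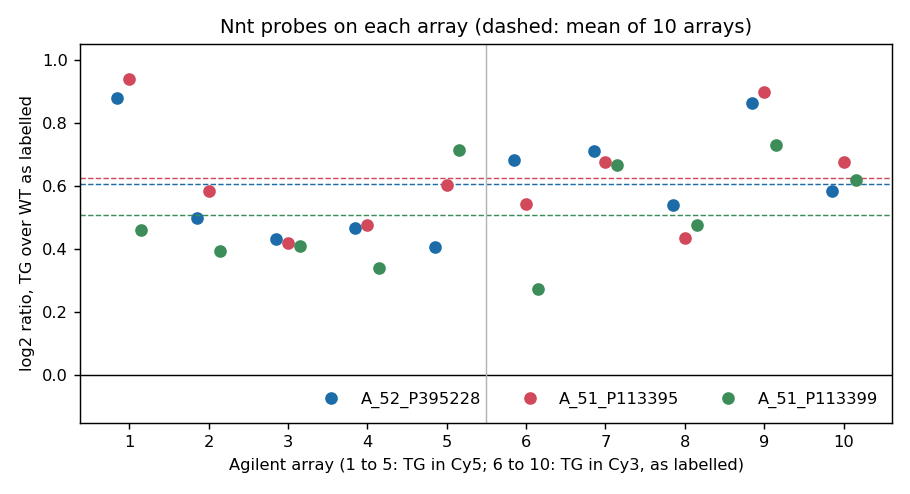
Log2 ratio of TG over WT as labelled (vertical axis) of the 3 Nnt probes on each of the 10 Agilent arrays (horizontal axis, no order within a dye orientation); points are arrays, dashed lines the means of 10 arrays, and the grey line parts the dye orientations. All points lie above 0, and for A_52_P395228 arrays 1 and 9 are highest, at 0.88 and 0.86.

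The Nnt ratios are also given by dye orientation, again as a description. For A_52_P395228 the mean ratio was 0.54 on arrays 1 to 5 and 0.68 on arrays 6 to 10. For A_51_P113395 these means were 0.61 and 0.65, and for A_51_P113399 they were 0.46 and 0.55.

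After both channels were normalized to one log2 scale and averaged per mouse, the level of A_52_P395228 was 8.27, 8.25, 8.39, 8.33 and 8.29 in WT1, WT3, WT4, WT5 and WT6. In TG1 to TG5 it was 8.85, 8.89, 8.83, 9.21 and 8.79. All TG mice lay above all WT mice as labelled, and TG4 was the highest of them. The same holds for A_51_P113395, with WT levels between 7.53 and 7.93 and TG levels between 8.19 and 8.53. For A_51_P113399 the groups overlapped: WT levels were between 6.94 and 7.95 and TG levels between 7.63 and 8.37. The low end of both groups there came from the array shared by WT3 and TG4, where WT3 read 6.37 and TG4 read 7.10, although the other dye gave 7.50 and 8.17 for these mice. The share of all probes without overlap between the mice of both groups was 2.08%, from which nothing is read for Nnt either. In bulk tissue, fewer cells of a type and less RNA per cell cannot be told apart.

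The 3 Nnt probes lie within 639 bases of each other on the minus strand of chromosome 13_random in the coordinates of the array files (24127089 to 24127727), which name no genome build. They are therefore not independent looks at the whole transcript. A further probe, A_52_P593890, which the rule does not take in and which was picked after its values were seen, was designed on a separate transcript 9775 bases beyond the outermost of them. Its log2 ratio was 0.02 ± 0.07 (SD, n = 10), and WT mice had a level of 6.18 ± 0.08 and TG mice one of 6.20 ± 0.09 (SD, n = 5 each). Of 16 probes for the 10 genes next to Nnt in RefSeq's gene order, looked up afterwards, 3 passed the FDR (1 higher and 2 lower), with ratios over all 16 from -0.39 to 0.26.

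Of the 14 partner probes, 3 passed the FDR (21.4%, against 7.41% of all probes), 2 higher (Gpx4 and Sod2) and 1 lower (Idh2) in TG as labelled. When only probes well above background on all 10 arrays were fitted, 3564 of 30203 passed, a larger share than over all probes. Of the 13 partner probes among them, 4 passed. The median ratio of the 14 probes was 0.01, with 7 positive and 7 negative, against a median of 0.00 over all probes. At an unadjusted p under 0.05 there were 4 such probes, the additional one being a Gpx1 probe, against 18.9% of all probes. One of the 14 kept its sign on all 10 arrays, and the same one, that of Sod2, had WT and TG mice that did not overlap, against 2.11% and 2.08% of all probes. Without the mouse TG4, Sod2 was the 1 partner probe that passed.

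**Figure D2:**
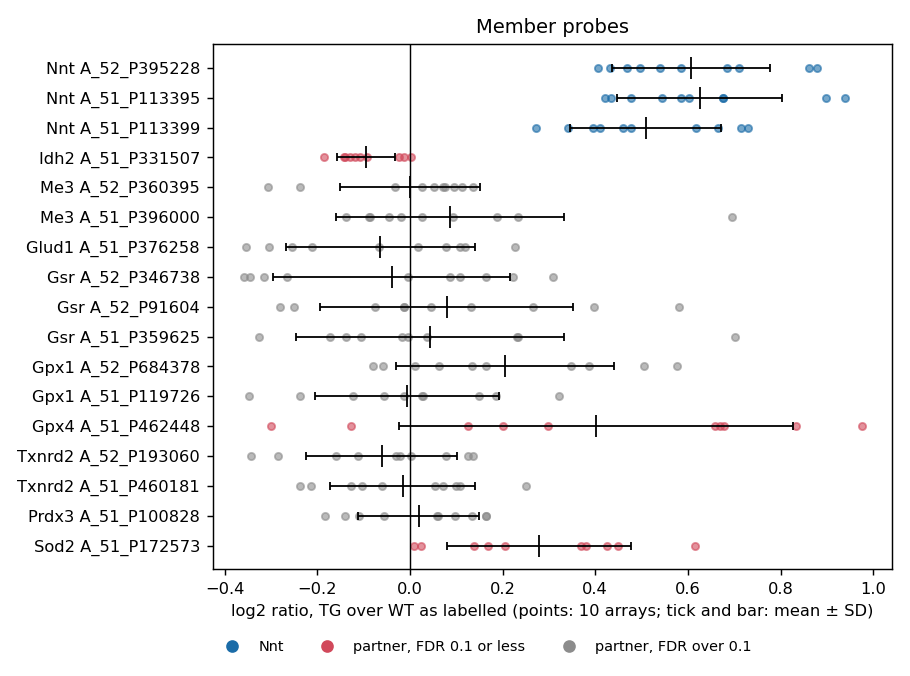
Log2 ratio of TG over WT as labelled (horizontal axis) of all 17 member probes (vertical axis); points are the 10 arrays, and the tick with its bar is the mean ± SD. The Nnt points lie between 0.27 and 0.94, Sod2 lies above 0 on all arrays, Gpx4 spreads from -0.30 to 0.97, and the grey probes did not pass the FDR.

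Among the enzymes that make NADPH, Idh2, the mitochondrial NADP-dependent isocitrate dehydrogenase, was slightly lower in TG. Its probe lies at chr7:73896751-73896810 on the minus strand in the coordinates of the files. The log2 ratio was -0.19 on the lowest array, -0.11 at the median and 0.00 on the highest, with a mean of -0.10 ± 0.02 (SE, n = 10; limma, FDR = 0.0582). This is 1.07-fold, and 9 of 10 arrays had the sign. Its levels per mouse were 8.23, 8.19, 8.43, 8.40 and 8.31 in WT1, WT3, WT4, WT5 and WT6, and 8.26, 8.27, 8.26, 8.16 and 8.12 in TG1 to TG5. These levels overlapped, and the highest of all were WT4 and WT5. The call was lost without any one of arrays 1, 2, 6, 8 and 9, with median centring in place of loess (log2 ratio -0.03, limma, FDR = 0.854), and without any one of the mice WT3, WT4, WT5, TG1, TG3, TG4 and TG5.

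Me3, the mitochondrial NADP-dependent malic enzyme, had mean ratios of 0.00 ± 0.05 (SE) and 0.09 ± 0.07 (SE) on its 2 probes (limma, FDR = 0.998 and 0.599), and the second was high on array 6 alone, at 0.70. Glud1, glutamate dehydrogenase, had a ratio of -0.06 ± 0.06 (SE, limma, FDR = 0.653), with 5 arrays on each side of 0. The 95% intervals of these ratios ran from -0.10 to 0.10 and from -0.07 to 0.24 for the Me3 probes and from -0.19 to 0.07 for Glud1. Differences within these bounds are therefore not excluded. The intervals take the 10 arrays as independent, although each mouse was on 2 of them.

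Of the reductases and their peroxidases in the matrix, Gsr, which regenerates reduced glutathione at the cost of NADPH, had ratios between -0.04 and 0.08 on its 3 probes (limma, FDR from 0.684 to 0.865). Txnrd2, which does the same for thioredoxin in mitochondria, had -0.06 and -0.02 (limma, FDR = 0.581 and 0.925). Prdx3, the mitochondrial peroxiredoxin that thioredoxin serves, had 0.02 ± 0.04 (SE, limma, FDR = 0.884). None of these 6 probes passed the FDR, and on each of them arrays lay on both sides of 0. Their 95% intervals stayed within -0.20 and 0.25.

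Gpx4, the glutathione peroxidase that reduces lipid hydroperoxides, was higher in TG as labelled but uneven over the arrays. Its probe lies at chr10:80179269-80179328 on the plus strand in the coordinates of the files. Its log2 ratio was -0.30 on the lowest array, 0.48 at the median and 0.97 on the highest, with a mean of 0.40 ± 0.12 (SE, n = 10; limma, FDR = 0.0925), or 1.32-fold, and 8 of 10 arrays were positive. Arrays 2, 3, 6, 8 and 9 were at 0.66 or above, and the other 5 at 0.30 or below. Per mouse the level was 11.43, 10.96, 11.14, 11.39 and 11.58 in WT1, WT3, WT4, WT5 and WT6, and 11.64, 11.65, 11.84, 11.53 and 11.86 in TG1 to TG5. WT3 and WT4 were the lowest mice as labelled, and WT6 lay above TG4. The FDR rose to between 0.102 and 0.202 without any one of arrays 1, 2, 3, 6, 7, 8, 9 and 10, and it stayed at or under 0.1 only without array 4 or array 5. Of the 10 mice, only without WT6 did Gpx4 keep its call; its ratio was lowest without WT3, at 0.30 (limma, FDR = 0.342).

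Sod2, the manganese superoxide dismutase that turns superoxide into the hydrogen peroxide removed by these peroxidases, had a ratio of 0.01 on the lowest array, 0.29 at the median and 0.62 on the highest. Its mean was 0.28 ± 0.06 (SE, n = 10; limma, FDR = 0.0337), or 1.21-fold, positive on 10 of 10 arrays. Per mouse the level was 9.71, 9.54, 9.56, 9.53 and 9.81 in WT1, WT3, WT4, WT5 and WT6, and 9.91, 9.91, 9.89, 9.84 and 9.98 in TG1 to TG5. The groups did not overlap as labelled, with TG4 just above WT6. The files place this 60-base probe at chr17:11517133-11517192 on the minus strand, while RefSeq's table of a later build has Sod2 on the plus strand. The call held without each single array (limma, FDR from 0.0252 to 0.083), and was lost without any one of the mice WT3, WT4, WT5, TG3 and TG5 (limma, FDR from 0.102 to 0.166).

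**Figure D3:**
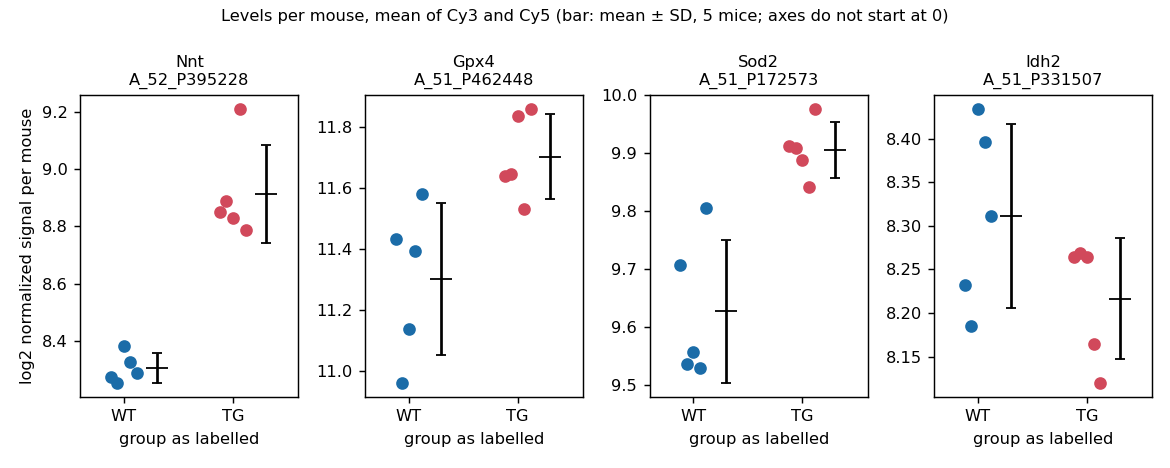
Log2 normalized signal per mouse, the mean of its Cy3 and Cy5 channels (vertical axes, which do not start at 0), of 1 probe each of Nnt, Gpx4, Sod2 and Idh2 in the 5 WT and 5 TG mice as labelled; bars are the mean ± SD of 5 mice. WT and TG points are apart for Nnt and Sod2 and overlap for Gpx4 and Idh2.

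The 2 probes of Gpx1, the glutathione peroxidase of cytosol and mitochondria, differed from each other. A_52_P684378 had a ratio of 0.20 ± 0.07 (SE, limma, FDR = 0.121), from -0.08 to 0.58 over the arrays, and was flagged by the scanner software as an outlier spot on 3 of them. A_51_P119726, which begins 342 bases beyond the end of the first in the coordinates of the files, had -0.01 ± 0.06 (SE, limma, FDR = 0.978). The level of the first was about 10 and that of the second between 7 and 8 on the log2 scale. With the probes of each gene averaged, Gpx4, Sod2 and Idh2 remained the genes that passed the FDR, and Gpx1 stood at 0.10 (limma, FDR = 0.234).

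With 1 value per mouse, 5 WT against 5 TG, 24 of the 41174 probes passed the FDR and none of the 14 partner probes did (limma, 3 of them at an unadjusted p under 0.05). This fit treats both arrays of a mouse as 1 observation. It also drops the pairing of WT and TG within an array, so differences in spot and array intensity enter its error. The fall in calls mixes both changes. The sizes of the ratios are the same in this fit by construction, and only their errors differ. Gpx4 stood at 0.40 (limma, FDR = 0.348), Sod2 at 0.28 (limma, FDR = 0.201) and Idh2 at -0.10 (limma, FDR = 0.838). With the WT mouse as a random block, by contrast, 5969 probes and 4 of 14 partner probes passed, Gpx1 A_52_P684378 among them (limma, FDR = 0.0667). The block's estimated correlation was -0.248. A negative value makes the standard errors smaller, from 0.024 to 0.020 for Idh2. The counts with this block are therefore no correction for the repeat arrays of a mouse.

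Likeness to Nnt over the arrays differed between the partners. Taking the log2 ratios of A_52_P395228 as the reference, Gpx4 had a Pearson correlation of 0.141 (Spearman 0.0909) over the 10 arrays and Sod2 one of 0.0472 (Spearman 0.139). Idh2 stood at -0.0421. The highest partners were Txnrd2 A_51_P460181 at 0.818 and Prdx3 at 0.685, and these 2 stood at 0.777 and 0.781 without arrays 1 and 9, the 2 farthest from the Nnt median. The other Txnrd2 probe stood at -0.573. No p is given, since the arrays share mice. Over 30202 probes well above background the middle 90% of such correlations ran from -0.741 to 0.745, so of the partners only that Txnrd2 probe lay outside it. Even the Nnt probes were uneven, at 0.840 for A_51_P113395 and 0.209 for A_51_P113399, and at 0.464 and -0.0199 without arrays 1 and 9. The 5 named genes most like this Nnt probe, among 19245 named probes, were Sec24d, Efna2, Osmr, Intu and Stard13, with correlations of 0.970 to 0.949 over the 10 arrays and mean log2 ratios between -0.12 and 0.15.

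Gpx4 and Sod2 moved together. Their correlation over the 10 arrays was 0.869 (Spearman 0.830), and 0.911 without arrays 4 and 5, which lay farthest from the Gpx4 median. Gpx1 A_52_P684378 stood at 0.788 with Gpx4, whereas the other Gpx1 probe stood at -0.407. Glud1, which did not pass the FDR, stood at 0.733 with Gpx4 and at 0.690 with Sod2. The same 5 arrays, 2, 3, 6, 8 and 9, were the highest for Sod2 as for Gpx4.

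Promoters from RefSeq's table for build GRCm38.p6 (250 bases before to 50 after a start) were at hand for 8 of the 10 members; Nnt and Gsr have none there. Those of Sod2 and Gpx4 are shown because these 2 enzymes moved together. The capitals mark GGGCGG, the GC box bound by Sp1, or its reverse complement CCGCCC. Of the 4 listed starts of Gpx4, the one with the most matches, the first of 2 that tie, is shown. Sod2 lies at chr17:13007589-13007888 (plus strand) and Gpx4 at chr10:80053315-80053614 (plus strand).
Sod2: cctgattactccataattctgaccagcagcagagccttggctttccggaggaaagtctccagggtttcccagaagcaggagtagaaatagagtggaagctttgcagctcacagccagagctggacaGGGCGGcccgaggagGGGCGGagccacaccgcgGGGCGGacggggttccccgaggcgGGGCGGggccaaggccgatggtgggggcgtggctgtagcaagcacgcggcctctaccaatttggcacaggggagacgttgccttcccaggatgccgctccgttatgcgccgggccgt
Gpx4: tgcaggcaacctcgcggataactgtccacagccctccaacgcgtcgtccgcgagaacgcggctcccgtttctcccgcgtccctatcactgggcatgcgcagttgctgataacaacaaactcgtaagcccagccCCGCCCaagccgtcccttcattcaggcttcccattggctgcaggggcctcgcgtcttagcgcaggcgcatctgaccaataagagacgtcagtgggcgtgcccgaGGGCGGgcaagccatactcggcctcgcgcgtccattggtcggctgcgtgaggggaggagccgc
The Sod2 window held 4 such boxes and the Gpx4 window 2, and 35.7% of 32851 promoters of this length held at least 1. Of the other members, Idh2 had 2, Glud1 3, Gpx1, Txnrd2 and Prdx3 1 each and Me3 0. The letters TGACNNNGC, the core of the antioxidant response element, searched on both strands, were in none of the 11 windows of the members and in 12.4% of all promoters. A match is a description of these letters and says nothing of binding.

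Other redox genes were read from 7 lists, with the members left out. Of 77 probes for 57 genes, 15 passed the FDR and all 15 were higher in TG as labelled (19.5%, against 3.66% of all probes called higher). When only probes well above background on all arrays were fitted, 20 of 75 redox probes were called higher, against 1766 of 30203 probes. The median ratio of the 77 probes was 0.04. In the mitochondrial thioredoxin and glutathione group 3 of 7 probes passed, namely Prdx5, a peroxiredoxin of mitochondria and peroxisomes, at 0.51 ± 0.10 (SE, limma, FDR = 0.031), Glrx5, a mitochondrial glutaredoxin of iron-sulfur cluster assembly, at 0.28 ± 0.07 (SE, limma, FDR = 0.0581), and Glrx2, the other mitochondrial glutaredoxin, at 0.33 ± 0.09 (SE, limma, FDR = 0.0766). Of 15 probes for other mitochondrial NAD and NADP enzymes 1 passed (6.67%, against 7.41% of all probes). This was Idh3g, a subunit of the NAD-dependent isocitrate dehydrogenase, at 0.13.

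Cytosolic sources of NADPH contributed 1 of 12 probes (8.33%, near the 7.41% of all probes that passed the FDR), Aldh1l1 at 0.23. Aldh1l1 is a folate enzyme and also an astrocyte marker. None of the probes for G6pdx, Idh1 and Me1 passed. Of the cytosolic thioredoxin and peroxiredoxin probes 3 of 15 passed: Txn1, thioredoxin itself, at 0.50 ± 0.10 (SE, limma, FDR = 0.0295), 1 of 3 probes of Prdx2 at 0.27, and 1 of 3 probes of Srxn1, sulfiredoxin, at 0.14. Glutathione genes gave 5 of 17, led by Gpx8 at 0.24, Mgst3 at 0.51, Gstm1 at 0.23 and Gsta4 at 0.19. Superoxide and peroxide removal gave 2 of 5, Sod1, the copper and zinc superoxide dismutase, at 0.47 ± 0.12 (SE, limma, FDR = 0.0538) and its copper chaperone Ccs at 0.22. Of 12 probes for NRF2 targets, 1 passed, that of Srxn1 (8.33%, again near the 7.41% of all probes). Hmox1 stood at -0.04 and Nqo1 at 0.05.

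Several of these genes had the array pattern of Gpx4. The correlation with Gpx4 over the 10 arrays was above 0.7 for 7 of the 15 probes, with a median of 0.632 and a range from -0.0372 (Idh3g) to 0.892 (Sod1). For all probes well above background its 95th percentile was 0.708. Sod1 stood at 0.79 or above on arrays 2, 3, 6, 8 and 9 and at 0.20 or below on the others. Its levels were 11.26 ± 0.38 (SD, n = 5) in WT mice and 11.72 ± 0.06 (SD, n = 5) in TG mice, so that the spread lay in the WT group as labelled. Txn1 had 10.17 ± 0.31 in WT and 10.67 ± 0.15 in TG mice (SD, n = 5 each). Without WT4 none of the 77 probes passed (limma, 22 at an unadjusted p under 0.05), and without WT3 only 2 did, whereas without TG4 it was 12. Without TG2, TG3, TG5, TG1 and WT5, each in turn, the counts were 6, 4, 4, 7 and 7, and without arrays 2, 3, 6, 8 and 9 they were 7, 7, 8, 8 and 8. With 1 value per mouse, which also drops the pairing within arrays, the count was 0 (limma, 20 at an unadjusted p under 0.05). With the WT mouse as a block, whose negative correlation makes the standard errors smaller, it was 24, of which 22 were higher.

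**Figure D4:**
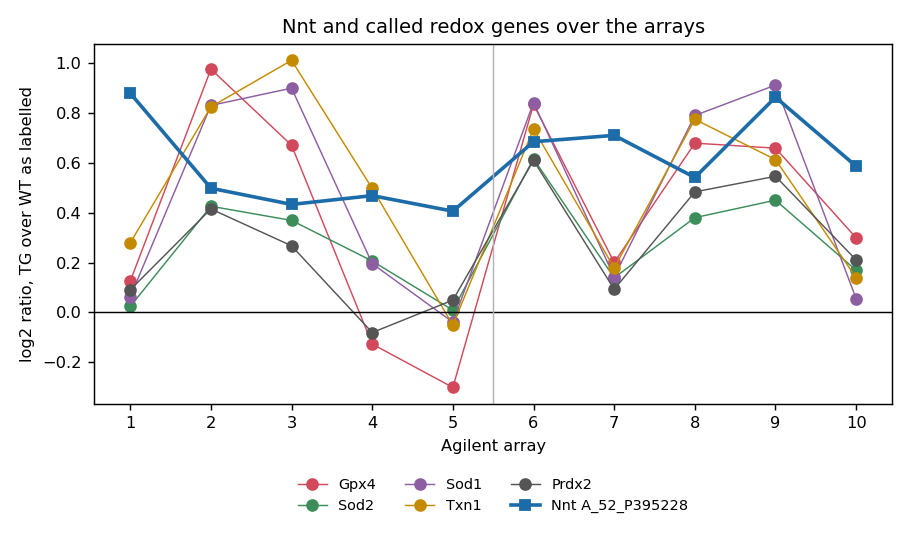
Log2 ratio of TG over WT as labelled (vertical axis) on each Agilent array (horizontal axis; lines only guide the eye, as arrays have no order) of Nnt A_52_P395228 (squares) and of called probes of Gpx4, Sod2, Sod1, Txn1 and Prdx2 (circles). The circles are high on arrays 2, 3, 6, 8 and 9, whereas Nnt is highest on arrays 1 and 9.

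Markers of the cell types in the tissue were read beside these values, where 7.41% of all probes passed the FDR. Of 6 astrocyte probes 3 were higher (2 of the 3 for Aqp4, at 0.42 and 0.31, and Aldh1l1), while Gfap stood at -0.15 (limma, FDR = 0.137). The summed astrocyte level was 11.68 to 11.90 in WT and 11.89 to 12.19 in TG mice on the log2 scale. Of 6 oligodendrocyte probes for Mbp, Mobp and Mog 1 was lower (Mbp at -0.22), with summed levels of 13.72 to 14.31 in WT and 13.26 to 13.83 in TG mice. Of 8 microglia probes 1 was higher (Aif1 at 0.32; summed level 10.77 to 11.02 in WT, 10.91 to 11.04 in TG), and of 4 endothelial probes 1 was lower (Cldn5 at -0.25; 10.19 to 10.25 in WT, 9.79 to 10.16 in TG). None of the 14 neuron probes passed (limma, 6 at an unadjusted p under 0.05; summed level 15.52 to 15.68 in WT, 15.34 to 15.58 in TG), nor any of the 4 choroid plexus probes and 2 erythrocyte probes (1 in each list at an unadjusted p under 0.05). All these marker probes were well above background on all arrays. The part of cell makeup in the differences of Gpx4, Sod2 and the redox genes was not tested.

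A list of loci known to differ between C57BL/6 substrains held 6 genes beside Nnt. Of their 7 probes 2 passed the FDR, those of Gabra2 and Cyfip2, both higher in TG as labelled (3.66% of all probes were called higher). Nothing is read from this count, since the list was chosen with earlier results known and the study had reported Gabra2 as changed. Gabra2, a GABA-A receptor subunit, had a log2 ratio of 0.11 on the lowest array, 1.24 at the median and 2.33 on the highest, with a mean of 1.26 ± 0.23 (SE, n = 10; limma, FDR = 0.0223). Cyfip2, a subunit of the actin-regulating WAVE complex, had 0.43 ± 0.10 (SE, n = 10; limma, FDR = 0.05). The levels of WT and TG mice did not overlap for either gene. The other 5 probes, of Crb1, Entpd4, Nlrp12 and Wdfy1, had ratios between -0.06 and 0.07. Those of Crb1 and Nlrp12 were above background on none of the arrays, and that of Wdfy1 on 7 of 10. Whether the groups differed in substrain was not tested.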

How the data were processed

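RNA from the hippocampus of WT and TG mice had been hybridized to 10 Agilent arrays, and the authors deposited the scanner output of each: mean and median pixel intensity per spot in Cy3 and Cy5 with local background and flags, and the software's log10 ratio of Cy5 over Cy3, already corrected for background and dye by that software per the file headers. The ABI intensities were deposited by the authors without normalization. Of Illumina, 80 per-sample columns carry names that no label pairs with a mouse, and they were not used here. Affymetrix and home-spotted arrays were not analysed here.

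Mean intensities, not corrected for background, were loess normalized within each array, control spots having weight 0, in R 4.3.3 with limma 3.58.1. Log ratios were turned to log2 TG over WT by the labels and averaged over spots of one probe. An intercept was fitted with lmFit and eBayes over all 41174 probes, and p-values were adjusted by Benjamini and Hochberg (FDR limit 0.1). Levels per mouse are means of the Cy3 and Cy5 channels after loess and Aquantile. ABI signals were quantile normalized on the log2 scale and fitted by genotype, since vsn was not at hand. The reference table named 22080 probes through their accessions, and a further 1509 took a symbol from the files. Precision is limited by how many arrays there are.

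The pairing of arrays comes from the mouse numbers of the labels, as each mouse is on 2 arrays. As labelled, the block correlation was -0.248 for the WT mouse and -0.14 for the TG mouse. The members and gene lists were chosen with earlier results of these data known. Named genes were all members, up to 4 called genes of each list by smallest p, the 5 genes most like the lead Nnt probe, the gene with the smallest p on both platforms and Dclk1. Alternatives covered background correction, normalization, signal, dye, blocks, filters, robust regression, and each array or mouse left out. Tested on simulated data of 41174 probes with 100 changed by each size, the Agilent fit recovered 81% of log2 changes of 0.3 and 95% of those of 0.6. Of its 194 calls, 18 were false. The noise was drawn independently for each array and probe, whereas the real arrays share mice, so these rates need not hold for them. Values of some genes on the marker lists are left out here.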

Additional observations from a re-analysis of the deposited data

Results flagged for a closer look

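Of 51 groups of values for the member probes (10 arrays, 5 WT mice or 5 TG mice each), 4 held a sample set apart from the others by a gap wider than Dixon's limit, and chance alone gives about 1 in 20. The Nnt level of A_52_P395228 in TG4 was 9.21, above the other TG mice, and TG4 is the mouse of arrays 1 and 9. The Me3 ratio of A_51_P396000 was 0.70 on array 6. The Glud1 level in TG2 was 11.05, below the other TG mice. The Gsr level of A_52_P346738 in TG1 was 7.82, above the other TG mice, whereas the other 2 Gsr probes of TG1 stood at 8.18 and 8.46, within the range of the TG group.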

How the results depend on the processing

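Nnt was chosen on this contrast, so its values under the alternatives are a description only. The log2 ratios of its 3 probes ran from 0.47 to 0.77. Only A_51_P113399 with the scanner's own ratio moved by more than 1 SD, to 0.69. The dye term, the blocks, 1 value per mouse and the background filter leave the mean ratio of a probe as it is by construction. No called member probe changed sign. With median centring the DEGs fell to 1335, of which 92.3% were higher against 49.3% with loess, and the median of all probes then stood at -0.03. An FDR of 0.05 left 1203 DEGs, 1 partner probe and 7 redox probes. With 1 value per mouse, and so without the pairing within arrays, these were 24, 0 and 0 (limma, 3 partner and 20 redox probes at an unadjusted p under 0.05). With the replicate block on the WT mouse they were 5969, 4 and 24, and the block on the TG mouse gave 4526, 4 and 22. Both block correlations were negative, which makes the standard errors smaller, so these counts do not correct for repeat arrays. Leaving out single arrays gave 1117 to 3404 DEGs, 1 to 4 partner probes and 7 to 18 redox probes, and leaving out single mice gave 282 to 3199, 0 to 3 and 0 to 16. The partner count was 0 without WT3, WT4, WT5, TG3 or TG5 (limma, 3 or 4 at an unadjusted p under 0.05). On ABI, median centring and the block on the mouse number left 0 DEGs (limma; 1748 and 1838 at an unadjusted p under 0.05), and single mice left out gave 0 to 2, with Tmem254a 1.70 to 1.88 higher in TG throughout. Its Agilent ratio stayed between -1.19 and -0.92. A block on slide or scan was not run, since each slide held 1 array and all were scanned on one day. Probe signal near background limits the Crb1 and Nlrp12 probes.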
